A study of Rattus norvegicus with 32 samples.

Results

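Exocytosis in LSECs, the fenestrated endothelial cells that line the hepatic sinusoid, was described through the genes of its fusion and tethering machinery. Members were taken by symbol: the syntaxins (Stx), syntaxin-binding proteins (Stxbp), vesicle-associated membrane proteins (Vamp), Snap23, Snap25, Snap29 and Snap47, the exocyst subunits (Exoc), the synaptotagmin-like proteins (Sytl), and Ykt6, Nsf, Napa, Napg and Unc13d. The rule found 51 genes among the 32623 of the series, under 49 symbols, because Sytl2 and Exoc2 each stand under 2 gene identifiers. The rule uses symbols and no measured value, but it was chosen with earlier results of these data known. Snap23 and Stx19 were not analysed here.

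SNARE proteins drive membrane fusion. A SNARE on the vesicle, usually a Vamp, zips together with a syntaxin and a SNAP25-type protein on the target membrane. SM proteins, to which Stxbp2 and Stxbp3 belong, hold syntaxins and guide this assembly, tomosyn (Stxbp5) and amisyn (Stxbp6) occupy syntaxins in place of a Vamp, and Nsf with its adaptors Napa and Napg pulls used complexes apart. Before fusion, the exocyst tethers vesicles at the plasma membrane, and Rab27 effectors (the Sytl family) and the priming factor Unc13d bring secretory granules to it. Endothelial cells use this machinery to release Weibel-Palade bodies, which store von Willebrand factor and P-selectin.

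The data were RNA-seq expected counts of LSECs, isolated from perfused and digested rat livers on an iodixanol gradient several days after the last dose of toxicant. Healthy LSECs came from 6 untreated Wistar Han rats. CCl4, a hepatotoxin given by inhalation with phenobarbital in the drinking water of that model, was administered for 2 weeks (acute injury, n = 5) or 6 weeks (fibrosis, n = 5), and to the cirrhotic group (n = 6) for 12 to 14 weeks, a duration stated for the series and not in the labels of those libraries. A separate experiment with thioacetamide (TAA, intraperitoneal) held 5 libraries labelled control and 5 labelled TAA control. The labels do not settle which of these received TAA, and they name Wistar Han where the study's methods name Sprague-Dawley rats, so the difference is given below without a direction of treatment. All rats were male per the study's methods, each library is counted as 1 rat, and no batch is labelled.

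Totals per library ranged from 25646531 to 46464289 expected counts. Levels are given as CPM, counts scaled to a common library size after TMM scaling over all 32 libraries, which are not divided by gene length and therefore are compared between groups and not between genes. The labelled cell type was checked against 13 endothelial and LSEC markers (Stab2, Clec4g, Kdr, Lyve1 and others). Their summed level was 17193 to 31622 CPM in healthy libraries, 4404 to 5278 in acute, 3200 to 4215 in fibrosis, 17965 to 22800 in cirrhosis, and 23474 to 36196 in the TAA experiment. None was at 0 in any group, but 11 of 13 were lower in acute and 12 of 13 in fibrosis than in healthy LSECs. In cirrhosis 5 were lower and 1 higher. Over all genes tested against healthy LSECs, 35.5% were higher and 37.9% lower in acute injury. The shares were 35.3% and 34.9% in fibrosis, and 27.1% and 24.7% in cirrhosis. Dissociation stress genes (Fos, Jun and others) summed to 28441 to 64420 CPM in healthy libraries and to 961 to 6240 in acute and fibrosis libraries. Cirrhotic libraries had 22817 to 43233. All 10 were lower in acute injury, 9 in fibrosis and 4 in cirrhosis than in healthy LSECs, and 9 were higher in cirrhosis than in fibrosis. Hepatocyte markers summed to 1259 to 26491 CPM in healthy, 146 to 941 in acute, 1322 to 5228 in fibrosis and 3073 to 15608 in cirrhotic libraries. All 8 were lower in acute injury, 5 in fibrosis and 2 in cirrhosis than in healthy LSECs, and all 8 were higher in fibrosis than in acute injury. Stellate cell and fibroblast markers summed to 433 to 1056 CPM in healthy, 1329 to 2128 in acute, 1310 to 1761 in fibrosis and 825 to 2508 in cirrhotic libraries. Of these, 7 of 10 tested were lower and 1 higher in acute injury, 4 lower and 3 higher in fibrosis, and 8 of 11 higher in cirrhosis (median log2 fold-change 2.08), where 8 were also higher than in fibrosis. The marker higher in acute injury was Reln, with 1319 to 2119 CPM there and 118 to 200.4 in healthy libraries. Macrophage markers, 7 of 8 tested lower in acute injury and 8 of 8 in fibrosis, summed to 263 to 2560 CPM in healthy, 29.3 to 203 in acute and fibrosis, and 693 to 2622 in cirrhotic libraries. The part of these shifts in the results was not tested, and in bulk RNA fewer cells of a type and less RNA per cell cannot be told apart.

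**Figure D1:**
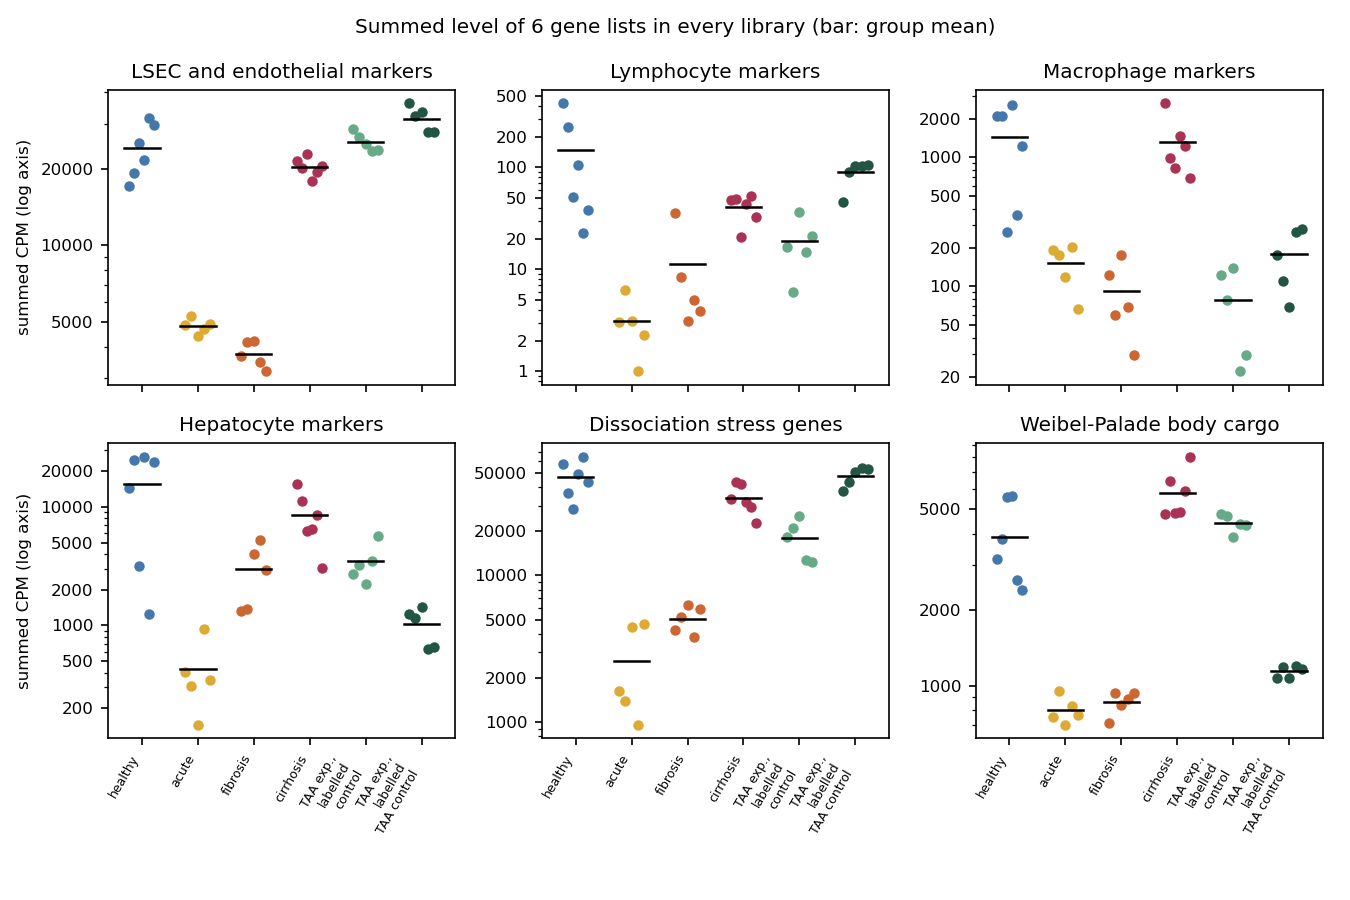
Each point is 1 library, the vertical log axis is the summed CPM of a gene list, and the bar is the group mean. The endothelial markers of acute and fibrosis libraries (3200 to 5278) lie below those of every other library (17193 or more), and lymphocyte markers are highest in healthy replicates 1 and 2.

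A member was called when its adjusted p (Benjamini-Hochberg over all genes tested with limma-voom) was under 0.05 and its fold-change above 1.5. In acute injury 32 of 47 members tested were called, 18 higher and 14 lower than in healthy LSECs, where 73.4% of all genes were called (35.5% higher and 37.9% lower). In fibrosis 30 of 47 were called, 15 higher and 15 lower, against 70.2% of all genes (35.3% higher and 34.9% lower). In cirrhosis 24 of 48 were called, 17 higher and 7 lower, against 51.8% (27.1% higher and 24.7% lower). The share of members called was thus near that of all genes at each stage. The median log2 fold-change of the members was 0.15, 0.02 and 0.42 in acute, fibrosis and cirrhosis, beside -0.09, -0.03 and 0.07 over all genes tested. These 3 comparisons share the 6 healthy libraries.

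Between stages, 2 of 47 members were called in fibrosis against acute, both higher (Unc13d and Sytl2), where 11.0% of all genes were called (10.2% higher and 0.732% lower). In cirrhosis against fibrosis 23 of 48 were called, 16 higher and 7 lower, against 63.8% of all genes (34.3% higher and 29.5% lower). The median log2 fold-change of the members in cirrhosis against fibrosis was 0.24 beside 0.04 over all genes. Without TMM scaling the median of all genes rose to 0.32, 0.37 and 0.42 in acute, fibrosis and cirrhosis against healthy, and 23 of 33, 22 of 29 and 25 of 30 called members were then higher, where 73.6%, 70.4% and 54.3% of all genes were called. Directions below are those with TMM scaling, relative to the other genes of the library.

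**Figure D2:**
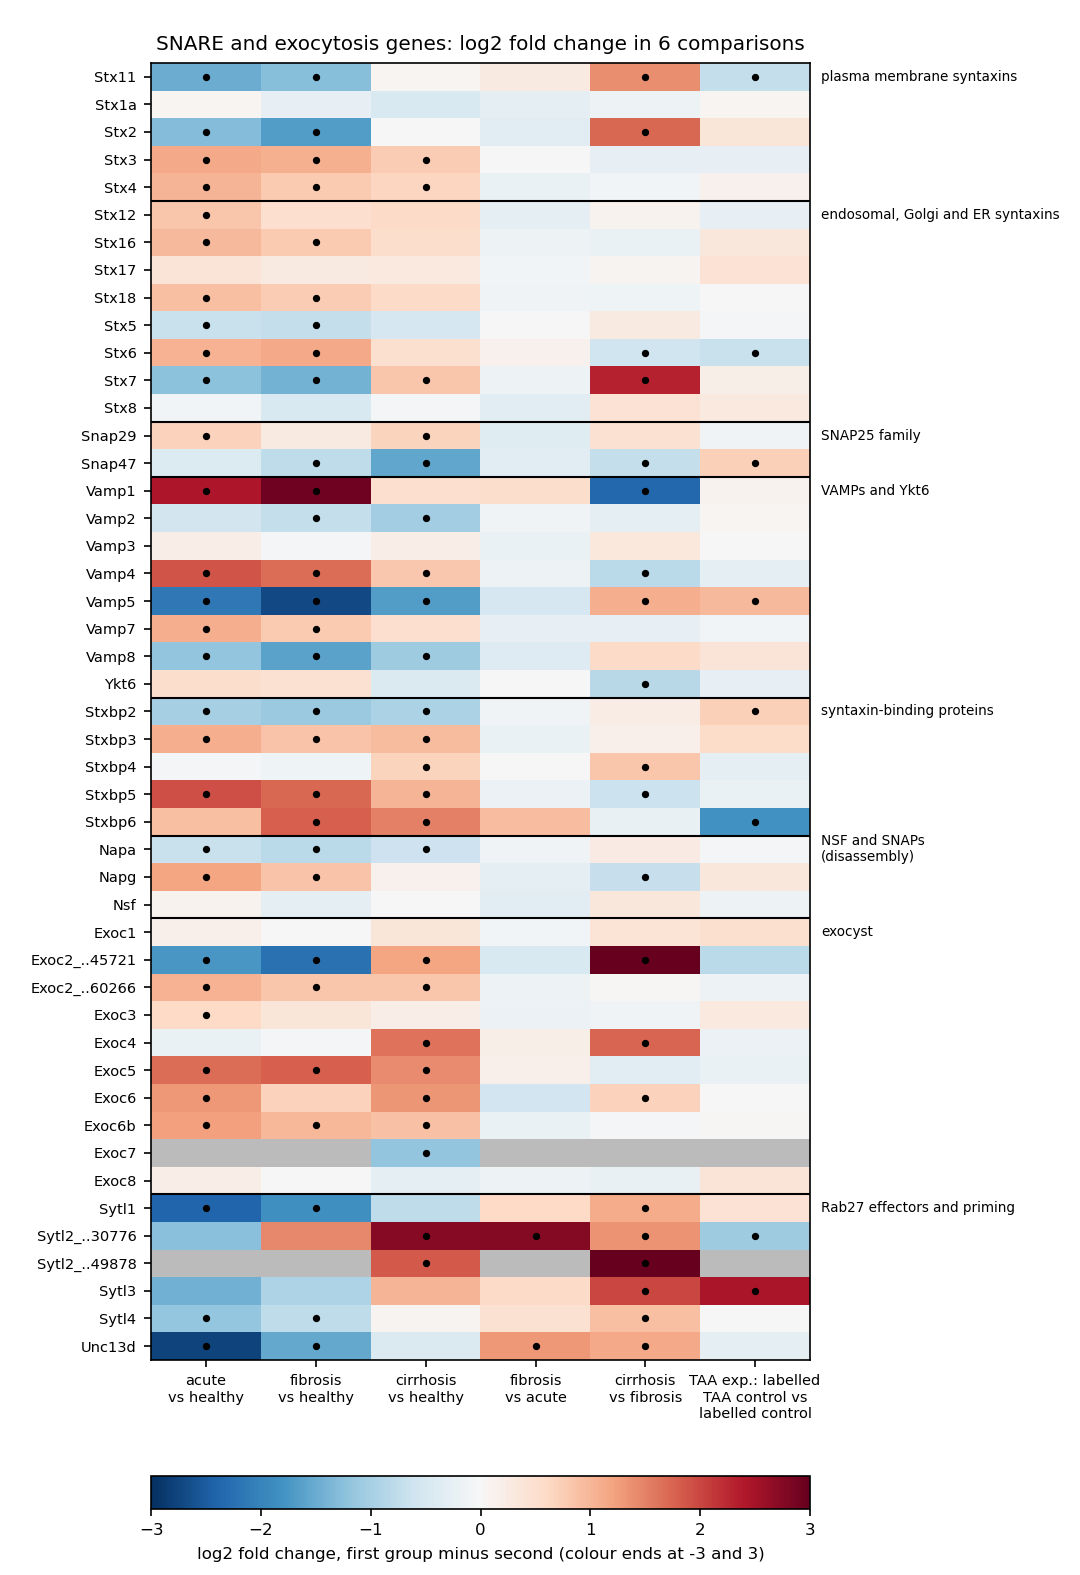
Rows are members tested, grouped by role, and columns the 6 comparisons, with colour giving the log2 fold-change of the first group minus the second and a dot marking a called member. Grey marks members not tested, and for Exoc7 the comparisons whose groups hold libraries at a count of 0; Vamp5 and Vamp8 are blue in the 3 comparisons with healthy LSECs, and Vamp4, Stxbp5 and Exoc5 are red.

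Among the plasma membrane syntaxins, Stx11 and Stx2 were lower in acute and fibrosis, and Stx3 and Stx4 were higher at each stage. Stx11, which cytotoxic lymphocytes need for granule release and which other cells also express, had 39.1 to 95.7 (median 45.4) CPM in healthy LSECs. Acute libraries had 18.98, 16.9, 16.7, 15.1 and 24.2 and fibrosis libraries 20.9, 21.7, 20.2, 18.6 and 21.5, all below every healthy library. The log2 fold-change of Stx11 was -1.495 in acute injury (SE 0.24, adjusted p = 0.000124) and -1.28 in fibrosis (SE 0.23, adjusted p = 0.000267). In cirrhosis it had 39.1 to 62.7 (median 60.5), a range that overlaps the healthy one, with a log2 fold-change of 0.06 (SE 0.23, adjusted p = 0.847).

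Stx2, also known as epimorphin, had 60.3 to 116 (median 77.1) CPM in healthy LSECs. It had 39.1, 38.6, 27.5, 32.2 and 28.4 in acute injury and 22.1, 23.9, 25.03, 24.8 and 26.4 in fibrosis. Again no injured library of these stages reached a healthy one, and the log2 fold-changes were -1.29 (SE 0.18, adjusted p = 3.75e-05) and -1.68 (SE 0.17, adjusted p = 2.33e-06). In cirrhosis Stx2 had 76.7 to 95.7 (median 84.4), with a log2 fold-change of -0.01 (SE 0.16, adjusted p = 0.975), and it was higher there than in fibrosis by 1.73 (SE 0.09, adjusted p = 4.88e-09).

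Stx3, a syntaxin of the apical membrane in polarized cells, moved the other way. It had 15.5 to 30.97 (median 19.1) CPM in healthy LSECs, 39.4, 44.8, 44.2, 36.3 and 70.2 in acute injury, 37.9, 48.7, 44.4, 36.7 and 45.7 in fibrosis and 31.2 to 41.96 (median 38.1) in cirrhosis. The lowest library of each injured group stood above the highest healthy one. Its log2 fold-changes were 1.14 (SE 0.22, adjusted p = 0.000498), 1.07 (SE 0.19, adjusted p = 0.000228) and 0.76 (SE 0.17, adjusted p = 0.00237). Stx4, the partner of Stxbp3 in fusion at the plasma membrane, was higher by 1.02, 0.78 and 0.64, and its cirrhosis call was lost without healthy replicate 1 (0.52). The neuronal syntaxin Stx1a was not called at any stage, with log2 fold-changes from -0.45 to 0.05.

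Of the 8 syntaxins of endosomes, Golgi and endoplasmic reticulum, 4 were higher and 2 lower in acute injury (35.5% and 37.9% of all genes). In fibrosis 3 were higher and 2 lower (35.3% and 34.9%), and in cirrhosis 1 was higher and none lower (27.1% and 24.7%). The largest changes were in Stx7, a syntaxin of late endosomes and lysosomes. It had 23.9 to 52.6 (median 34.4) CPM in healthy LSECs. Acute libraries had 16.6, 17.1, 14.4, 15.3 and 14.8 and fibrosis libraries 14.7, 16.4, 14.2, 10.7 and 11.3. Cirrhotic libraries had 62.6 to 72.4 (median 70.2). The injured groups thus lay on either side of the healthy range without overlapping it.

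Stx7 was lower, with log2 fold-changes of -1.22 in acute injury (SE 0.21, adjusted p = 0.00018) and -1.42 in fibrosis (SE 0.22, adjusted p = 0.000103), and higher by 0.83 in cirrhosis (SE 0.17, adjusted p = 0.00132). Cirrhosis against fibrosis gave 2.31 (SE 0.11, adjusted p = 3.15e-09). In 18 libraries the Stx7 count was not whole and was completed to a whole number by the row of LOC100910446, so that RSEM divided reads between both. Summed over both rows, the log2 fold-changes were -1.25, -1.36 and 0.82 against healthy LSECs, and all 3 stayed called.

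Stx6, of the trans-Golgi network, was higher by 1.05 and 1.13 in acute injury and fibrosis and was not called in cirrhosis (0.47, SE 0.21, adjusted p = 0.0656). Stx16, its partner there, was higher by 0.98 and 0.78, and Stx18, of the endoplasmic reticulum, by 0.90 and 0.76. Stx12, of recycling endosomes, passed both thresholds in acute injury alone (0.83). Stx5, a Golgi syntaxin, was lower, with log2 fold-changes of -0.68 and -0.71, and its acute call was lost without healthy replicate 4 (-0.55). Without TMM scaling neither call of Stx5 remained (-0.26 and -0.32). Stx8 and the autophagosomal syntaxin Stx17 were not called against healthy LSECs at any stage.

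The 2 measured members of the SNAP25 family changed in different directions. Snap29, which acts with Stx17 in the fusion of autophagosomes with lysosomes, had 69.3 to 176 (median 108) CPM in healthy LSECs, 196, 186, 187, 150 and 200 in acute injury, 133, 134, 147, 128 and 127 in fibrosis and 145 to 218 (median 199) in cirrhosis. The 2 highest healthy libraries, replicates 5 and 6 (176 and 164), reached into the acute and cirrhotic ranges and lay above the fibrosis range. Snap29 was higher by 0.69 (SE 0.23, adjusted p = 0.0139) in acute injury and by 0.67 in cirrhosis (SE 0.21, adjusted p = 0.0156), and both calls were lost without healthy replicate 2 (0.54 and 0.53). Fibrosis gave 0.27 (SE 0.22, adjusted p = 0.275).

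Snap47, a SNAP25-like protein of internal membranes, had 12.5 to 22.5 (median 18.6) CPM in healthy LSECs, 12.6, 15, 12.3, 16.2 and 9.71 in acute injury, 8.89, 8.30, 11.1, 10.1 and 12.2 in fibrosis and 4.87 to 9.13 (median 5.88) in cirrhosis. Fibrosis and cirrhosis libraries all lay below the lowest healthy one. Its log2 fold-change was -0.42 in acute injury (SE 0.20, adjusted p = 0.0742), -0.77 in fibrosis (SE 0.19, adjusted p = 0.00327) and -1.55 in cirrhosis (SE 0.21, adjusted p = 0.000142). It was lower in cirrhosis than in fibrosis, with a log2 fold-change of -0.73 (SE 0.16, adjusted p = 0.00116). Without TMM scaling the fibrosis call was lost (-0.37). Snap25, the neuronal member and also one of the markers used to look for neurons, had a count of 1 in 1 cirrhotic library and 0 in the other 31. The 5 neuron markers with Snap25 among them summed to 10.8 to 82.6 CPM in healthy and 75.7 to 136 in acute libraries. Their sum was 67.9 to 109 in fibrosis and 14.4 to 24.3 in cirrhosis. Of 3 tested, 1 was higher and 2 lower in acute injury and in fibrosis, and none was called in cirrhosis against healthy LSECs. The part of neuronal RNA in the members was not tested.

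The vesicle SNAREs changed in both directions, with 3 of 8 higher and 2 lower in acute injury (35.5% and 37.9% of all genes). In fibrosis 3 were higher and 3 lower (35.3% and 34.9%), and in cirrhosis 1 was higher and 3 lower (27.1% and 24.7%). Vamp1, best known from synaptic vesicles, had 0.967 to 1.42 (median 1.17) CPM in healthy LSECs. Acute libraries had 7.53, 8.13, 5.54, 7.14 and 4.49 and fibrosis libraries 8.34, 7.33, 6.34, 7.61 and 17.1, the last value being replicate 17. All 10 stood above every healthy library. Vamp1 was higher by 2.44 (SE 0.24, adjusted p = 2.06e-06) in acute injury, a 5.41-fold rise, and by 2.91 in fibrosis (SE 0.31, adjusted p = 4.33e-06). Cirrhotic libraries had 1.44 to 2.24 (median 1.77), above all healthy ones but under the fold threshold (0.50, SE 0.20, adjusted p = 0.0489). Cirrhosis against fibrosis gave -2.36 (SE 0.28, adjusted p = 8.7e-06).

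Vamp5, first described in muscle and also found in endothelium, had 13.7 to 28.9 (median 23.9) CPM in healthy LSECs. It had 5.90, 5.00, 4.77, 5.56 and 4.23 in acute injury, 2.94, 3.52, 2.60, 3.78 and 4.21 in fibrosis and 6.55 to 8.49 (median 7.50) in cirrhosis. The lowest healthy library exceeded the highest of all 16 injured ones. Vamp5 was lower, with log2 fold-changes of -2.15 (SE 0.23, adjusted p = 4.18e-06), -2.70 (SE 0.25, adjusted p = 1.43e-06) and -1.67 (SE 0.21, adjusted p = 0.000103), which is 4.42-fold, 6.52-fold and 3.18-fold lower. Its level in cirrhosis stood 1.09 above fibrosis (SE 0.14, adjusted p = 1.44e-05).

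Vamp8, the endobrevin of late endosomes and secretory granules, was lower, with log2 fold-changes of -1.19, -1.60 and -1.07 at the 3 stages, and its healthy libraries (40.6 to 78.3 CPM) lay above all injured ones (15.99 to 37.2). Vamp2 was lower, with a log2 fold-change of -0.72 in fibrosis (a call lost without TMM scaling, -0.32) and -1.05 in cirrhosis, and missed the fold threshold in acute injury (-0.56). Vamp4, of the trans-Golgi network, was higher by 1.88, 1.67 and 0.81, and the lysosomal Vamp7 by 1.08 and 0.79 in acute injury and fibrosis. Vamp3 and Ykt6 were not called against healthy LSECs, and Ykt6 was lower in cirrhosis than in fibrosis, with a log2 fold-change of -0.84.

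**Figure D3:**
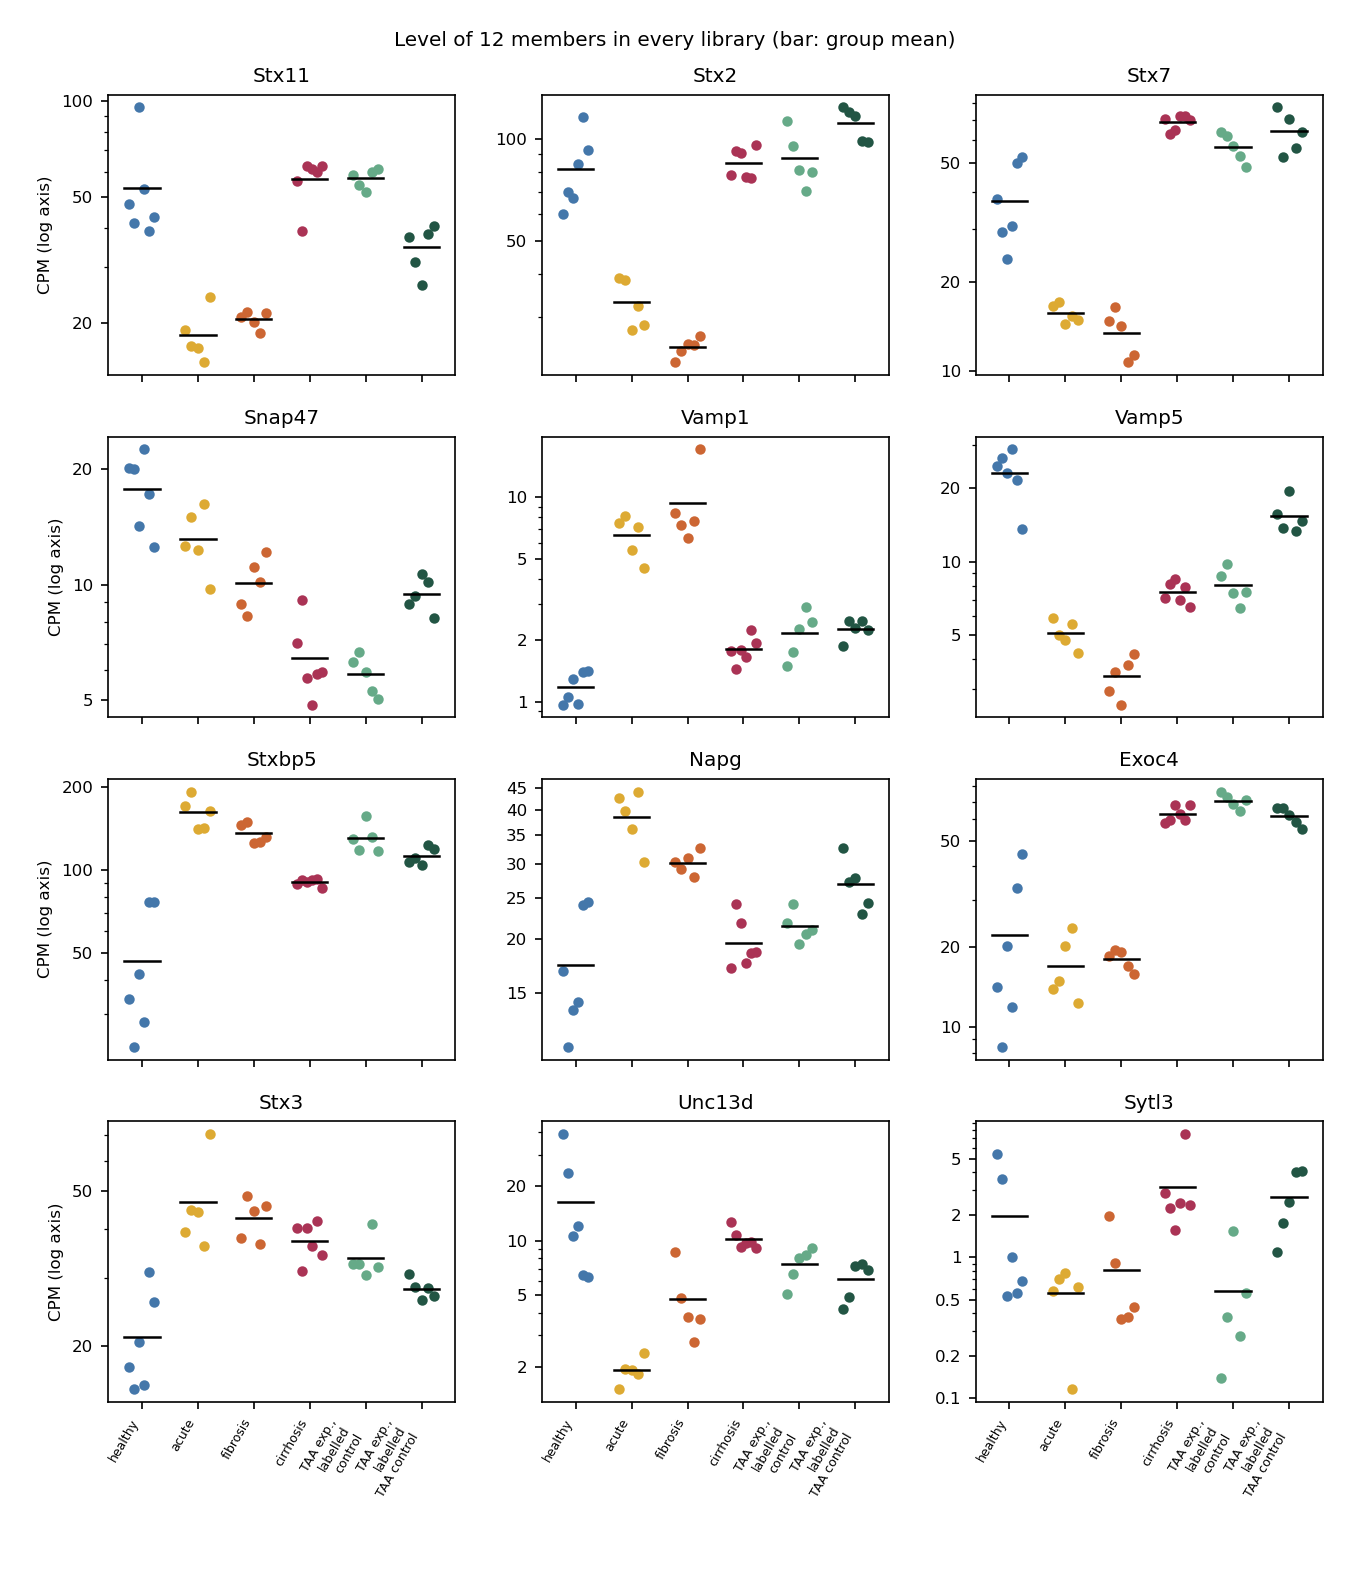
Each point is 1 library, the vertical log axis is CPM, and the bar is the group mean, for 12 members. Vamp5 is low in all injured groups, Stx2, Stx7 and Stx11 are lower in acute and fibrosis than in healthy libraries, and the healthy libraries of Stxbp5, Exoc4 and Unc13d spread more widely than the cirrhotic ones.

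Vamp5 and Vamp8 are neighbours, their starts lying 12395 bases apart on chromosome 4 in the RefSeq annotation of GRCr8, a later assembly than the one of the files. The promoter window of each, 250 bases before to 50 after the start, is printed to show these 2 neighbours beside 2 genes that were higher at each stage, Stxbp5 and Exoc5. Capitals mark the motifs searched on both strands: the GC box (GGGCGG), the CCAAT box, the TATAAA box, the AP-1 site (TGANTCA), the E-box (CACGTG), the CRE (TGACGTCA) and the ETS core (CCGGAAGT). The windows are chr4:105993198-105993497 (minus strand), chr4:106005593-106005892 (minus strand), chr1:6155479-6155778 (minus strand) and chr15:24834892-24835191 (minus strand), all 5′ to 3′ on the strand of the gene.
Vamp5: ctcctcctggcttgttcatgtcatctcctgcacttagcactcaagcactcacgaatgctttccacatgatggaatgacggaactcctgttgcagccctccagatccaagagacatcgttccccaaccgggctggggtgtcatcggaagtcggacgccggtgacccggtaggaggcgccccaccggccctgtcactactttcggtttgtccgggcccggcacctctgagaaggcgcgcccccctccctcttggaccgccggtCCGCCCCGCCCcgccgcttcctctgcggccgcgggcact
Vamp8: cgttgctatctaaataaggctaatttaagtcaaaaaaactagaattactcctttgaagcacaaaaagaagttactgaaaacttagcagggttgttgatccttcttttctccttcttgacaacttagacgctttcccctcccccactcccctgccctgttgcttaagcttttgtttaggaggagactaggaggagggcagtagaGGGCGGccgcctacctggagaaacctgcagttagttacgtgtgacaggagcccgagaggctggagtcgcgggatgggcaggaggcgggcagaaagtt
Stxbp5: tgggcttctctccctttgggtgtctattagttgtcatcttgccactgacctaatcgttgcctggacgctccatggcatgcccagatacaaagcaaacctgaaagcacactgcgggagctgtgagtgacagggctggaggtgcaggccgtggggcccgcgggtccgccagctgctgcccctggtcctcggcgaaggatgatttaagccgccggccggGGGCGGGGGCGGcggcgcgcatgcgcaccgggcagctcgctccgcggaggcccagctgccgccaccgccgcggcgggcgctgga
Exoc5: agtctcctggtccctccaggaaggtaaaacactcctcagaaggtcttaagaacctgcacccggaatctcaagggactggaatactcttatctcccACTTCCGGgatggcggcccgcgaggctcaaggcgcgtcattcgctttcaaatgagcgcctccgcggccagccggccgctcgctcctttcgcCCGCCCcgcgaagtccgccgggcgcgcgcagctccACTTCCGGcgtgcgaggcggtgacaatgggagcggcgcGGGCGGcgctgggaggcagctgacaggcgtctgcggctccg
The Vamp5 window holds 2 overlapping GC boxes, that of Vamp8 holds 1, that of Stxbp5 holds 2, and that of Exoc5 holds 2 GC boxes and 2 ETS cores. None of the 4 holds a CCAAT box, a TATAAA box, an AP-1 site, an E-box or a CRE in these letters.

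Promoters were found for 42 of the 49 symbols, in 43 windows, and not for 7, among them Exoc7, Snap25, Sytl2, Vamp3 and Vamp7. A GC box stood in 27 of the 43 (62.8%), beside 33.1% of all 33469 promoters of the table, and an ETS core in 5 (11.6%) beside 3.81%. A TATAAA box stood in 2 (4.65%) beside 14.2%, a CCAAT box in 14 (32.6%) beside 37.5%, an E-box in 6 (14.0%) beside 6.42%, and a CRE in 2 (4.65%) beside 1.83%. The AP-1 letters stood in none, beside 7.33% of all promoters. Members are richer in G and C than the table (median 62.3% against 51.7%), and of the windows of members higher and lower in acute injury, 13 of 16 and 8 of 12 held a GC box.

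Of the 6 syntaxin-binding proteins, 2 were higher and 2 lower in acute injury (35.5% and 37.9% of all genes). In fibrosis 3 were higher and 1 lower (35.3% and 34.9%), and in cirrhosis 4 were higher and 1 lower (27.1% and 24.7%). Stxbp5 (tomosyn), which binds syntaxins and hinders fusion, had 22.8 to 76.4 (median 37.97) CPM in healthy LSECs, with replicates 5 and 6 the highest. It had 171, 192, 141, 143 and 164 in acute injury, 145, 150, 126, 127 and 132 in fibrosis and 86.2 to 92.6 (median 91.2) in cirrhosis. No injured group overlapped the healthy one. The log2 fold-changes were 1.93 (SE 0.30, adjusted p = 7.62e-05), 1.71 (SE 0.29, adjusted p = 0.000196) and 1.01 (SE 0.26, adjusted p = 0.00535), and cirrhosis against fibrosis gave -0.65 (SE 0.06, adjusted p = 1.49e-06).

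Stxbp3, the SM protein that partners Stx4, was higher by 1.09, 0.85 and 0.95. Stxbp2, the SM protein that partners Stx11, was lower, with log2 fold-changes of -0.99, -1.12 and -0.95, and these calls were lost without TMM scaling (-0.59, -0.73 and -0.61). The acute call was also lost without healthy replicate 1 (-0.74) or 4 (-0.84). Stxbp6 (amisyn) was higher by 1.80 in fibrosis and 1.51 in cirrhosis at low levels, 0.104 to 0.710 CPM in healthy and 0.637 to 2.05 in both groups. Stxbp4 passed in cirrhosis alone (0.67, SE 0.25, adjusted p = 0.0331), and lost the call with edgeR's quasi-likelihood test (0.59, adjusted p = 0.0675) or when any 1 of 10 libraries was left out (0.55 to 0.71).

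Of the disassembly proteins, Napg (gamma-SNAP) rose and Napa (alpha-SNAP) fell. Napg had 11.2 to 24.4 (median 15.6) CPM in healthy LSECs, 42.7, 39.8, 36.2, 44.2 and 30.4 in acute injury, 30.4, 29.1, 30.9, 27.97 and 32.7 in fibrosis and 17.1 to 24.2 (median 18.6) in cirrhosis. It was higher by 1.18 (SE 0.21, adjusted p = 0.000237) and 0.86 (SE 0.19, adjusted p = 0.00159), with no overlap with healthy LSECs, and overlapped them in cirrhosis (0.12, SE 0.19, adjusted p = 0.598).

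Napa had 81.1 to 171 (median 153) CPM in healthy LSECs, with replicates 5 and 6 the lowest, 89.1, 84.4, 78.6, 83.2 and 89.4 in acute injury, 71.2, 72.02, 74.99, 71.9 and 82.98 in fibrosis and 73.8 to 103 (median 95.4) in cirrhosis. Each injured group overlapped healthy replicates 5 or 6 or both. The log2 fold-changes were -0.66 (SE 0.21, adjusted p = 0.0117), -0.81 (SE 0.21, adjusted p = 0.00359) and -0.63 (SE 0.21, adjusted p = 0.0207), and none stayed called without TMM scaling (-0.25, -0.42 and -0.28). Leaving out healthy replicate 1, 3 or 4 also ended the acute call (-0.52 to -0.56), and leaving out healthy replicate 2, 3 or 4 or cirrhosis replicate 2 ended the cirrhosis call (-0.56 to -0.58). Nsf, the ATPase itself, was not called, with 0.11, -0.29 and -0.01.

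Among the 10 exocyst rows tested, 5 were higher and 2 lower in acute injury (35.5% and 37.9% of all genes). In fibrosis 3 were higher and 2 lower (35.3% and 34.9%), and in cirrhosis 6 higher and 1 lower (27.1% and 24.7%). Of these rows 2 belong to Exoc2 and share reads. They are counted as 1 higher and 1 lower in acute injury and in fibrosis, and as 2 higher in cirrhosis. Exoc4, a core subunit, was the exocyst gene with the largest log2 fold-change in cirrhosis among those called. It had 8.45 to 44.7 (median 17.2) CPM in healthy LSECs, 13.9, 14.8, 20.1, 23.6 and 12.3 in acute injury, 18.5, 19.4, 19.2, 16.9 and 15.8 in fibrosis and 58.3 to 68.1 (median 61.3) in cirrhosis. Only the cirrhotic libraries stood apart from the healthy ones, all of them above healthy replicate 6, the highest. The log2 fold-change in cirrhosis was 1.63 (SE 0.32, adjusted p = 0.00104), against -0.21 (SE 0.39, adjusted p = 0.639) and -0.06 (SE 0.37, adjusted p = 0.894) in acute injury and fibrosis. Cirrhosis against fibrosis gave 1.75 (SE 0.08, adjusted p = 3.43e-09).

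Exoc5, another core subunit, was higher by 1.68, 1.78 and 1.41 at the 3 stages, over healthy libraries that ranged from 10.03 to 75.9 CPM. Exoc6b was higher by 1.23, 0.99 and 0.88, and its injured libraries all lay above the healthy ones. Exoc6 was called in acute injury (1.31) and cirrhosis (1.33) and gave 0.69 in fibrosis (SE 0.37, adjusted p = 0.106). Exoc3 was at the fold threshold in acute injury (0.59) and was lost without healthy replicate 3 (0.58) or acute replicate 4 (0.57) or in 1 fit over the 22 libraries (0.56). Exoc1 and Exoc8 were not called against healthy LSECs.

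Exoc7, the subunit that binds membrane phosphoinositides, was at 0 in 5 libraries of the CCl4 model. Its expected count was 521.06 to 860.95 in healthy libraries. It was 234.15, 0, 71.17, 395.63 and 48.84 in acute injury and 63.95, 0, 0, 0 and 0 in fibrosis. It was 265.2 to 803.31 in cirrhosis, where the log2 fold-change was -1.17 (SE 0.25, adjusted p = 0.00198), a call lost in 1 fit over all 22 libraries of the model (-1.18, adjusted p = 0.0754, limma-voom). No fold is given for fibrosis, where 4 of 5 libraries were at 0.

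These zeros belong to 1 of 2 rows that divide reads. In all 25 libraries where the Exoc7 count was not whole, the row of LOC100911734 completed it to a whole number within 0.011, and that row had 19.9, 21.9, 24.8, 25.5 and 26.5 CPM in the fibrosis libraries. Summed over both rows, healthy libraries had 43.4 to 75.4 CPM, acute 32.2, 33.1, 30.4, 35.7 and 25.6, fibrosis 21.8, 21.9, 24.8, 25.5 and 26.5, and cirrhosis 22.97 to 36.5. All injured libraries stayed below the healthy ones. The sum was lower at the 3 stages (-0.89, -1.24 and -1.08), and limma-voom gave adjusted p = 0.000378, 2.39e-05 and 0.000334, and cirrhosis against fibrosis gave 0.22 (adjusted p = 0.106), not a call.

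The same holds for Exoc2, the subunit that binds Ral GTPases, whose 2 rows had counts that were not whole in all 32 libraries and summed to a whole number within 0.011. The smaller row (ENSRNOG00000045721) had 1.22 to 7.86 (median 4.37) CPM in healthy LSECs, 1.07, 0.815, 1.05, 2.72 and 0.581 in acute injury, 1.33, 0.9749, 0.667, 0.980 and 0.297 in fibrosis and 6.79 to 10.7 (median 9.35) in cirrhosis. On its own it was lower, with log2 fold-changes of -1.74 and -2.23 in acute injury and fibrosis, and higher by 1.19 in cirrhosis. The larger row (ENSRNOG00000060266) was higher by 1.05, 0.84 and 0.83. Their sum, 24.3 to 64.9 CPM in healthy and 52.8 to 80.7 in injured libraries, was higher by 0.91, 0.70 and 0.86 (adjusted p = 0.00681, 0.0257 and 0.00663, limma-voom). The sum follows the larger row, whose mean was 34.3 CPM in healthy, 66.8 in acute and 56.3 in fibrosis libraries. The fall of the smaller row does not show in it.

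**Figure D4:**
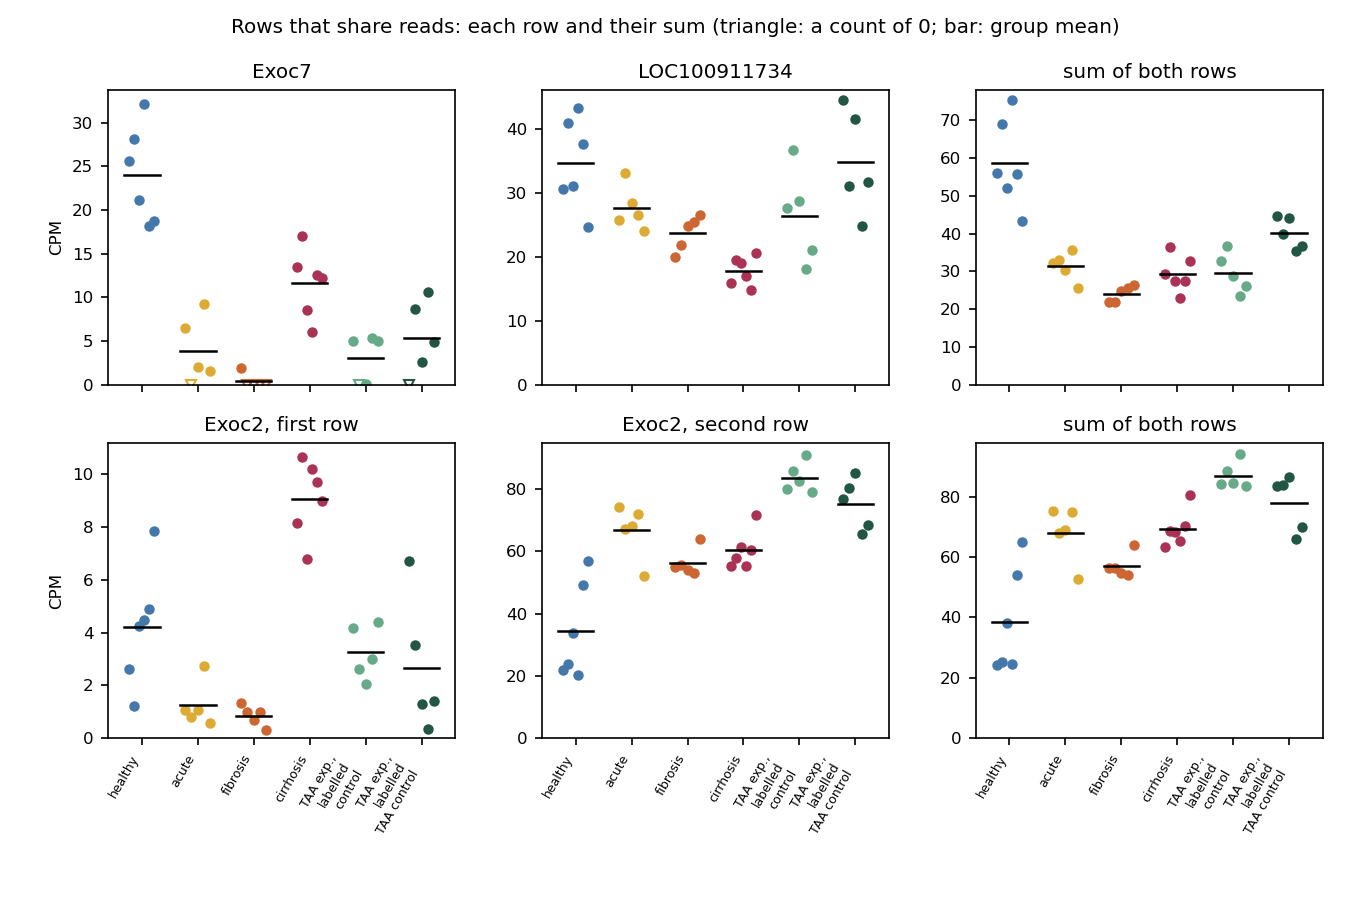
Each point is 1 library and the vertical axis is CPM, for Exoc7 and the row it shares reads with (top) and for the 2 Exoc2 rows, ENSRNOG00000045721 first (bottom), with the sum of both rows at the right and open triangles at a count of 0. Exoc7 alone is at 0 in 4 fibrosis libraries, whereas the sum there is 21.8 to 26.5 CPM, and the Exoc2 sum is higher in injured than in most healthy libraries.

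Among the Rab27 effectors and the priming factor Unc13d, 3 of 5 tested were lower and none higher in acute injury and in fibrosis. Of all genes 37.9% were lower and 35.5% higher in acute injury, and 34.9% and 35.3% in fibrosis. Of the 6 tested in cirrhosis 2 were higher than in healthy LSECs (the 2 Sytl2 rows), where 27.1% of all genes were higher. All 6 were higher in cirrhosis than in fibrosis, where 34.3% of all genes were higher. Both Sytl2 rows are among these 6 and share reads, their counts summing to a whole number in all 25 libraries where they are not whole. Summed, Sytl2 was higher by 1.57 in cirrhosis than in fibrosis (adjusted p = 0.00673, limma-voom).

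Unc13d, which primes granules in lymphocytes and Weibel-Palade bodies in endothelium, had 6.33 to 38.98 (median 11.4) CPM in healthy LSECs. It had 1.51, 1.96, 1.91, 1.84 and 2.39 in acute injury, 8.69, 4.84, 3.80, 2.74 and 3.71 in fibrosis and 9.09 to 12.7 (median 9.75) in cirrhosis. Acute libraries all lay below the healthy ones, with a log2 fold-change of -2.77 (SE 0.55, adjusted p = 0.000587). Fibrosis gave -1.53 (SE 0.53, adjusted p = 0.0198), lost without TMM scaling (-1.14) or without fibrosis replicate 16 (-1.35), and cirrhosis -0.44 (SE 0.40, adjusted p = 0.362). Fibrosis was higher than acute injury by 1.29 (SE 0.31, adjusted p = 0.0176), a call lost in 1 fit over all 22 libraries of the model (1.21, adjusted p = 0.175, limma-voom), and cirrhosis higher than fibrosis by 1.14 (SE 0.22, adjusted p = 0.000518).

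Sytl1 had 0.578 to 5.34 (median 1.62) CPM in healthy LSECs, 0.384, 0.272, 0.388, 0.233 and 0.355 in acute injury, 0.982, 0.314, 0.267, 0.433 and 0.534 in fibrosis and 0.508 to 1.91 (median 1.30) in cirrhosis. It was lower, with log2 fold-changes of -2.38 (SE 0.66, adjusted p = 0.00545) and -1.83 (SE 0.67, adjusted p = 0.0266) in acute injury and fibrosis, and gave -0.77 in cirrhosis (SE 0.59, adjusted p = 0.276). The fibrosis call was lost without TMM scaling (-1.46) or without fibrosis replicate 13, 15 or 16 (-1.65 to -1.81), and the one in cirrhosis against fibrosis (1.11) without TMM scaling (1.01), in 1 fit over the 22 libraries (1.11, adjusted p = 0.0992, limma-voom), without any of 4 cirrhosis libraries (replicates 1, 2, 4 and 5; 0.94 to 1.10) or without fibrosis replicate 13, 15, 16 or 17 (0.94 to 1.16).

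Sytl3 was not called against healthy LSECs. It had 0.533 to 5.37 (median 0.846) CPM there, 0.577, 0.707, 0.776, 0.116 and 0.613 in acute injury, 1.96, 0.912, 0.367, 0.375 and 0.445 in fibrosis and 1.57 to 7.50 (median 2.40) in cirrhosis, which was higher than fibrosis by 2.00 (SE 0.55, adjusted p = 0.00505). Unc13d, Sytl1, Sytl3 and Stxbp2 were highest in healthy replicates 1 and 2 and in fibrosis replicate 12, Stxbp2 with 46.2 and 39.6 against 13.4 to 31.6 CPM in the other healthy libraries and with 14.2 against 8.96 to 12.8 in the other fibrosis libraries. The main Sytl2 row, given next, was also highest in fibrosis replicate 12. The 11 lymphocyte markers summed to 426 and 250 CPM in those healthy libraries against 22.7 to 106 in the other 4, and to 35.5 CPM in that fibrosis library against 3.10 to 8.49 in the other 4. In acute injury the sum was 1.001 to 6.22 and in cirrhosis 20.8 to 52.2. Of these markers 7 of 8 tested were lower in acute injury and 6 of 9 in fibrosis than in healthy LSECs, and 9 of 10 were higher in cirrhosis than in fibrosis. Neutrophil markers summed to 45.1 CPM in healthy replicate 1 against 3.73 to 11.8 in the others, and to 2.74 in fibrosis replicate 12 against 0.267 to 0.490. Platelet and megakaryocyte markers were highest in healthy replicates 1 and 2 (51.5 and 37.8 against 12.2 to 29.6). Cholangiocyte markers were also highest there (26.4 and 9.53 against 1.67 to 7.23), and neither list was highest in fibrosis replicate 12. The part of RNA of lymphocytes or of these other cells in these 5 genes was not tested.

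Sytl2 under its main row (ENSRNOG00000030776) had 0.228 to 1.70 (median 0.656) CPM in healthy LSECs, 0.412, 0.761, 0.194, 0.0698 and 0.226 in acute injury, 6.03, 2.64, 0.634, 1.70 and 0.682 in fibrosis and 3.09 to 6.60 (median 4.48) in cirrhosis. The cirrhotic libraries all exceeded the healthy ones, by 2.74 (SE 0.45, adjusted p = 0.000376), and summed over both rows by 2.47. Fibrosis was higher than acute injury by 2.76 (SE 0.83, adjusted p = 0.0397), a call lost without any of the 5 acute libraries or without fibrosis replicate 13 or 16 (2.29 to 3.14), and in the summed rows by 2.68 (adjusted p = 0.0387). The difference in cirrhosis against fibrosis (1.36, SE 0.49, adjusted p = 0.0223) was not called with edgeR's quasi-likelihood test (0.94, adjusted p = 0.118) or DESeq2 (0.97, adjusted p = 0.0691), nor without fibrosis replicate 15 or 17 (1.04 and 1.02). Sytl4 (granuphilin), an effector found on Weibel-Palade bodies, was lower, with log2 fold-changes of -1.17 and -0.76, the fibrosis call being lost without TMM scaling (-0.36) or without fibrosis replicate 12 (-0.71) or 16 (-0.65) or healthy replicates 5 and 6 together (-0.55), and higher in cirrhosis than in fibrosis by 0.89. Sytl5 had no more than 4 counts in any library and was not tested.

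Healthy replicates 5 and 6 were left out together in an alternative chosen after seeing the data. Replicate 6 was the healthy library nearest to the cirrhosis mean in 24 of 48 members, and replicate 5 in 9. Without both, 35 of 47 members were called in acute injury, 31 of 47 in fibrosis and 33 of 48 in cirrhosis (22 higher and 11 lower), where 76.3%, 74.6% and 61.6% of all genes were called. The 24 members called in cirrhosis with all libraries were among the 33. Leaving out the healthy libraries nearest to the cirrhosis mean favours calls in cirrhosis by the choice itself, so the larger count is no separate evidence. Without replicate 6 alone 30 were called in cirrhosis, a count given without the share of all genes in that fit.

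In the TAA experiment 10 of 48 members differed between the groups, 4 higher and 6 lower in the libraries labelled TAA control, where 27.6% of all genes were called (12.7% higher and 14.9% lower). The median log2 difference of the members was -0.0045 beside 0.03 over all genes. Vamp5 had 15.8, 13.8, 19.5, 13.3 and 14.7 CPM in the libraries labelled TAA control and 8.78, 9.85, 7.44, 6.44 and 7.54 in those labelled control, a difference of 0.97 without overlap (SE 0.14, adjusted p = 0.000314). Sytl3 had 1.08, 1.76, 2.47, 4.02 and 4.11 and 0.138, 0.379, 1.53, 0.279 and 0.557, a difference of 2.44 (SE 0.60, adjusted p = 0.00641) with overlap. Lymphocyte markers summed to 45.7 to 105 CPM in the former group and 6.03 to 36.2 in the latter.

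Sytl2 (ENSRNOG00000030776) went the other way, with 2.40, 2.31, 4.59, 4.48 and 4.42 CPM in the libraries labelled TAA control and 8.12, 9.71, 7.33, 7.10 and 5.16 in those labelled control (-1.06, SE 0.25, adjusted p = 0.00475). Stx11 had 37.4, 31.2, 26.3, 38.1 and 40.3 and 58.7, 54.3, 51.7, 60.04 and 61.3, again without overlap (-0.73, SE 0.11, adjusted p = 0.000515). Snap47 had 8.87, 9.32, 10.6, 10.1 and 8.18 and 6.29, 6.68, 5.91, 5.29 and 5.02 (0.72, SE 0.11, adjusted p = 0.000522). The other called members included Stxbp2 (0.72), Stx6 (-0.67) and, at low levels, Stxbp6 (-1.81). Stellate cell markers summed to 421 to 632 CPM in the libraries labelled TAA control and 2290 to 5611 in those labelled control, and 9 of 11 were lower in the former. Hepatocyte markers (6 of 8 lower, 629 to 1427 against 2254 to 5637 CPM) and proliferation genes (6 of 6 lower, 38.0 to 69.1 against 49.3 to 177) moved the same way. Dissociation stress genes moved the other way, 9 of 10 being higher (37967 to 53769 against 12298 to 25631 CPM). The part of these lists in the differences of the members was not tested.

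Genes that work beside the members were followed through 3 lists. Of 23 tested GTPases, calcium sensors and cofactors of exocytosis, 5 were higher and 15 lower in acute injury (35.5% and 37.9% of all genes). In fibrosis 6 were higher and 14 lower (35.3% and 34.9%), and of 25 in cirrhosis 9 were higher and 7 lower (27.1% and 24.7%). Against fibrosis, 15 were higher and 2 lower in cirrhosis (34.3% and 29.5%). Rab27a, the GTPase that Sytl proteins and Unc13d bind, had log2 fold-changes of -2.91, -2.87 and 0.71 against healthy LSECs, each called. Rala, a Ral GTPase that binds the exocyst, had 3.07, 3.35 and 1.15. Of the exocyst-like genes, outside the rule for members, Exoc3l1 and Exoc3l2 were lower in acute injury (-5.54 and -5.78) and in cirrhosis (-1.45 and -1.59), and Exoc3l4 was higher by 1.83, 1.56 and 0.95 at the 3 stages. Rab3d and the Rab effector Rph3al were lower in acute injury (-4.68 and -6.22).

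Of 18 other SNAREs and SM proteins, 7 were higher and 4 lower in acute injury, 6 and 6 in fibrosis, and 3 and 3 in cirrhosis. Of 8 Weibel-Palade body cargo genes, 3 were higher and 5 lower in acute injury and in fibrosis, and 4 higher and none lower in cirrhosis. The shares of all genes higher and lower were 35.5% and 37.9% in acute injury, 35.3% and 34.9% in fibrosis, and 27.1% and 24.7% in cirrhosis. Vwf, the main cargo, had log2 fold-changes of -7.74, -6.43 and 0.09, the last not called, and Selp (P-selectin) of -3.68, -2.11 and 1.46. In the TAA experiment 7 of the 8 cargo genes were lower in the libraries labelled TAA control (14.9% of all genes), Vwf with -2.12. Summed cargo was 2392 to 5653 CPM in healthy, 702 to 954 in acute, 715 to 940 in fibrosis and 4796 to 8045 in cirrhotic libraries, and in this model it was low in the same groups as the endothelial markers. In the TAA experiment cargo was 1074 to 1198 CPM in the libraries labelled TAA control and 3892 to 4763 in those labelled control, while the endothelial markers were 27831 to 36196 in the former and 23474 to 28774 in the latter. The part of the endothelial markers in the cargo changes was not tested.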

How the data were processed

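LSECs of 32 rat libraries were profiled by poly(A) RNA-seq. The deposited expected counts were made by the authors with RSEM after STAR alignment to Rnor_6.0, and the submitters' processing notes also name FastQC, Trim Galore and limma. No versions are given in the sources used here. RSEM divides a read among the genes it matches, so counts need not be whole.

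Expected counts were rounded, and each comparison was fitted with limma-voom (limma 3.58.1, edgeR 4.0.16, R 4.3.3) on the libraries of its 2 groups, with TMM scaling, edgeR's default filter on low counts and Benjamini-Hochberg adjustment over all genes tested. A call required both an adjusted p under 0.05 and a fold above 1.5. Fold-changes are on the log2 scale of voom, which adds 0.5 to each count. The procedure was tested on simulated data with 200 changed genes, as many higher as lower, and 1 spread for all genes and libraries. Here 51.8% to 73.4% of all genes were called against healthy LSECs, and healthy libraries varied widely. The simulation therefore cannot show how the scaling and the spread of these libraries affect the calls. Totals of 25646531 to 46464289 per library set the counting precision, and p-values measure the spread between these libraries. Levels are CPM with TMM factors over all libraries. Promoters came from RefSeq (GRCr8), a build other than that of the files.

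Named with values in every library were, for each role and each comparison with healthy LSECs, the called member with the largest absolute log2 fold-change and a mean of at least 1 CPM, members called in opposite directions at 2 stages, and the 3 called members with the largest difference in the TAA experiment and a mean of at least 1 CPM. Fold-changes of other members were then added, and 2 members stand in the counts but are not reported here. Members, lists and this rule were chosen with earlier results of these data known. Marker lists (endothelium, stellate cell, hepatocyte, macrophage, lymphocyte, neutrophil, platelet, cholangiocyte, neuron, dissociation stress, proliferation) were followed by their summed CPM. Alternatives were edgeR's quasi-likelihood test, DESeq2 1.42.0, other scalings and filters, a replicate block and leaving out libraries. Replicates 14 and 15 labelled TAA control differed far less than other pairs (chi-square per degree of freedom 3.05, next lowest 25.2) and were merged in 1 alternative.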

Additional observations from a re-analysis of the deposited data

Results flagged for a closer look

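Among 108 groups of 5 or 6 libraries of the named members, 8 held a library whose gap to its nearest neighbour was large for the range of the group (Dixon's 95% limit), where chance gives about 1 in 20 groups, or 5.4 of 108. Stx11 was 95.7 CPM in healthy replicate 3 against 39.1 to 53.0 in the others, and 39.1 in cirrhosis replicate 2 against 55.9 to 62.7. Snap29 was 150 in acute replicate 4 against 186 to 200. Vamp1 was 17.1 in fibrosis replicate 17 against 6.34 to 8.34. Exoc7 was 1.85 in fibrosis replicate 12 and 0 in the others, a row that divides reads with LOC100911734. Stx3 was 41.2 in replicate 4 labelled control against 30.4 to 32.6. Sytl3 was 0.116 in acute replicate 4 against 0.577 to 0.776, and 7.50 in cirrhosis replicate 5 against 1.57 to 2.84.

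The difference of the CCl4 model from healthy LSECs changed direction between stages for Stx7 and for 1 of the 2 Exoc2 rows. Stx7 had log2 fold-changes of -1.22 in acute injury, -1.42 in fibrosis and 0.83 in cirrhosis, and cirrhosis exceeded fibrosis by 2.31 (adjusted p = 3.15e-09, limma-voom). The smaller Exoc2 row had -1.74, -2.23 and 1.19, and 3.48 in cirrhosis against fibrosis (adjusted p = 7.68e-07, limma-voom). Summed with the Exoc2 row it shares reads with, this gene was higher at all 3 stages.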

How the results depend on the processing

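Across 2265 alternative values for 108 gene results, 34 reversed in sign. Of the 61 called results 2 reversed, both of the smaller Exoc2 row, which with rows that share reads summed (chosen after seeing the data) became 0.91 in acute injury and 0.70 in fibrosis, because the larger row then enters. The other reversals are of results that were not called, and their cause was not tested. Exoc4 in acute injury turned to 0.21 without TMM, 0.43 without healthy replicates 5 and 6 (chosen after seeing the data), and ranged from -0.45 to 0.14 when single libraries were left out. In fibrosis it turned to 0.34 without TMM, 0.49 without both, and -0.30 to 0.14. Stx11 in cirrhosis was -0.022 with edgeR, -0.0054 with DESeq2, -0.14 without healthy replicates 5 and 6, and -0.032 to 0.25 without single libraries. Stx2 in cirrhosis was 0.0079 with DESeq2 size factors, 0.34 without TMM, 0.022 without a filter, 0.14 without healthy replicates 5 and 6, and -0.092 to 0.089 without single libraries. Without single libraries Stx3 in fibrosis against acute ranged from -0.11 to 0.12, and in the TAA experiment Vamp1 from -0.018 to 0.21 and Napa from -0.066 to 0.016.

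With adjusted p alone and no fold threshold, 10 members were called in fibrosis against acute, 35 in cirrhosis against fibrosis and 23 in the TAA experiment. One fit over 22 libraries called 1 in fibrosis against acute, and leaving out single libraries 1 to 3. For the other comparisons leaving out single libraries gave 29 to 34 (acute), 27 to 31 (fibrosis), 22 to 30 (cirrhosis), 21 to 24 (cirrhosis against fibrosis) and 10 to 11 (TAA). With a replicate block on shared numbers 36 members were called in acute injury (34 in those libraries without it) and 23 in cirrhosis (24 without it), and Exoc4 in acute injury was 0.49 with the block and 0.51 without it. Same-numbered libraries correlated at 0.03 to 0.20 (acute) and -0.25 to 0.29 (cirrhosis) in their deviations, and each number was best matched by its own in 2 of 4 and 0 of 6, so the numbers were not taken as pairs. Merging the 2 near-identical libraries labelled TAA control left 10 members called. The shares of all genes called in these alternatives are not given here. The counts therefore show how calls depend on the processing, and not a change particular to the members.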

Other observations

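Genes of the exocytic machinery that the rule for members left out changed in both directions. Of the SM proteins, Scfd1, which acts between endoplasmic reticulum and Golgi, was higher in acute injury, fibrosis and cirrhosis (log2 fold-changes 1.59, 1.61 and 1.42), and the SNARE Use1, of the retrograde route, was lower (-1.81, -1.78 and -1.26). Gosr1, a Golgi SNARE, was higher in acute injury (1.56) and fibrosis (1.27) and not called in cirrhosis (0.46). Unc13b, a priming factor related to Unc13d, was higher at each stage (1.62, 1.32 and 2.17).

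Syt7, a calcium sensor, was lower in acute injury (-1.03) and fibrosis (-1.19) and higher in cirrhosis (2.31), and Myrip, which links Rab27a to myosin and actin, likewise (-2.80, -1.94 and 1.06). Doc2b, another calcium sensor, was lower at all 3 stages (-5.35, -4.76 and -1.53). Among Weibel-Palade cargo, Angpt2 was higher at all 3 stages (3.32, 2.20 and 1.46). All of these 3 comparisons share the healthy libraries.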
